A study of Mus musculus with 6 samples.

Results

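In the tumor library of the Foxr2 p53LOF mouse model, 1052 of 10183 nuclei (10.3%, 95% exact binomial interval 9.75 to 10.9) held at least 1 chromatin count on the DNA of the Akaluc and GFP tumor vector. These vector nuclei were chosen by that count alone, among barcodes with 500 or more UMIs (unique molecular identifiers, 1 per captured RNA molecule) and a mitochondrial share of at most 5%. A further 5938 nuclei had 0 vector chromatin counts but held GFP or Akaluc RNA, and 3193 nuclei had neither and served as comparison nuclei. The library held 10379 barcodes, and the 3 libraries of the series held 22125. Vector nuclei were counted in 1 library, so no test between samples was run and no p-value is given. Intervals are exact, at 95%, and cover counting error only. Intervals of levels and ratios treat each count as independent. Those for RNA are too narrow where 1 nucleus holds many UMIs of a gene. Those for peak counts are too narrow because counts often come in pairs, as given below. A gene or peak is called higher or lower when it reached 10 CPM (counts scaled to a total of 1000000, UMIs for genes and peak counts for peaks) in 1 set and differed by at least 2-fold.

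Lesions in the brains of C57BL/6J mice were made by in utero electroporation of vectors into the ganglionic eminences, the ventral zones of the embryonic forebrain. All 3 libraries, each labelled brain tumor, carried Foxr2 overexpression, 2 of them with that alone (Foxr2 alone) and 1 with p53 loss of function in addition (Foxr2 p53LOF). Nuclei were read with the 10x Multiome assay, which measures RNA and open chromatin in the same nucleus. Foxr2 with a V5 tag and the luciferase Akaluc were carried by separate piggyBac vectors, each driven by the ubiquitous CAG promoter and each followed by GFP, while a guide RNA against Trp53 and Cas9 came from a plasmid. Transposase and Cas9 were expressed transiently, and the added reference chromosome holds Akaluc and GFP, so GFP reads can come from either piggyBac vector. Each library therefore held targeted cells together with the host brain around them.

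FOXR2 is a forkhead transcription factor that is silent in most normal tissue and is switched on in a group of embryonal brain tumors. The piggyBac transposase pastes a vector into the genome, after which every daughter cell inherits it, so that vector DNA is a mark of descent that is separate from vector RNA. A transposase cut in that DNA is a rare event, so a nucleus with 0 such counts can still hold the vector, whereas free GFP RNA can enter any droplet.

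The Foxr2 p53LOF library held 96929539 UMIs and 102529894 peak counts, and its peak list had 2 vector peaks, at bases 1889 to 2714 and 3730 to 4546 of the Akaluc and GFP chromosome. The Foxr2 alone replicate 1 library held 59719847 UMIs and no vector peak, and its GFP RNA stood at 29.1 CPM against 396 CPM in Foxr2 p53LOF, so vector chromatin could not be counted there. The peak list of Foxr2 alone replicate 2 had 1 vector peak, and its counts were not analysed here. The Foxr2 p53LOF library shared 140 barcodes with Foxr2 alone replicate 1 and 34 with replicate 2.

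Most vector nuclei stood at the edge of the threshold. Of the 1052, 154 held 1 vector count, 550 held 2, 87 held 3, 133 held 4, 128 held 5 or more, and the highest held 22, whereas the 9131 nuclei just outside the threshold held 0. A fragment has 2 ends, and 80.7% of all nonzero peak counts were even, so many counts are likely pairs from 1 fragment. Vector nuclei were deep, with a median of 11676.5 UMIs and 18252.5 peak counts, against 3123 UMIs and 5422 peak counts in the comparison nuclei. Comparisons were therefore made over pairs of nuclei matched on both depths. The doublet caller Scrublet marked 42 vector nuclei (3.99%).

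A peak inside the coding sequence of Foxr2 held more counts in vector nuclei than in comparison nuclei. The peak lay on chrX:153130170-153131097 (mm10), within the Foxr2 gene (chrX:153118786-153132861, plus strand), and held 871 of the 906 coding bases before the stop codon (96.1%). It opened 35 bases after the first base of the start codon and ran past the end of the coding sequence. The first and last coding bases are shown because they place both edges of that peak, in the sequence of RefSeq for GRCm38.p6, with the bases inside the peak in capitals.
Foxr2 coding sequence, first 120 bases, chrX:153130135-153130254: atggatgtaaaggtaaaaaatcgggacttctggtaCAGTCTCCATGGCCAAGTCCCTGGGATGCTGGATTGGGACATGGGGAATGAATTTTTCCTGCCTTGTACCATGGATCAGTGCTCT
Foxr2 coding sequence, last 60 bases, chrX:153130981-153131040: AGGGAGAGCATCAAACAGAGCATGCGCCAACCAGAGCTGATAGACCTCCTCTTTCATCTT

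No peak was called at the annotated start of Foxr2. The Foxr2 vector was not among the sequences that the authors added to mm10, so reads of the Foxr2 insert cannot be told apart from those of the mouse gene, in chromatin or in RNA. In the peak lists of the other libraries, Foxr2 alone replicate 2 had a peak over 93.6% of the same coding bases (chrX:153130193-153131057), and Foxr2 alone replicate 1 had none. A peak downstream of the gene, at chrX:153139559-153140408, had a counterpart in both, and it served as a local reference.

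Chromatin counts on the Foxr2 coding sequence went with the vector count. At 0, 1 to 2, 3 to 4 and 5 or more vector counts, 2.63%, 15.8%, 27.3% and 45.3% of nuclei had a count in the coding sequence peak. Deeper nuclei have more counts of every kind, and after scaling for depth the values were 7.34, 19, 22.2 and 24.7 CPM. The downstream reference peak gave 16.3, 12.6, 13.2 and 9.85 CPM over the same steps. Over all nuclei, the coding sequence peak thus stood below its neighbor at 0 vector counts and above it in every step of vector nuclei. The reference peak itself varied between the RNA clusters described below, from 26.5 CPM in cluster 0 to 0.648 CPM in cluster 6. In same-cluster partners with 0 vector counts, the coding sequence peak stood at 16.4 CPM, above the reference at 12.5 CPM. The part of the cluster mix in these steps was not tested. The comparison nuclei, which also lacked vector RNA, had 1.05 CPM (interval 0.641 to 1.62), or a count in 7 of 3193 nuclei, against 21.5 CPM (19.9 to 23.2), or 229 of 1052 nuclei, in the vector nuclei.

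The value was nearly the same whichever vector peak had chosen the nucleus. It was 22 CPM in the 303 nuclei with counts only in the peak at bases 1889 to 2714, 21.2 in the 558 with counts only in the other vector peak, and 21.7 in the 191 with both. Among matched pairs, 82 of 648 vector nuclei held 196 counts in the coding sequence peak and 3 of 648 comparison nuclei held 12, a log2 ratio of 3.82 (2.98 to 4.80). These partners were chosen for the absence of GFP, which the Foxr2 vector also carries, so this ratio is a description. The downstream peak went the other way, with 95 counts against 140 and a log2 ratio of -0.77 (-1.16 to -0.38).

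RNA of Foxr2 followed the same steps. A Foxr2 UMI was found in 18.4% of nuclei with 0 vector counts and in 49.3%, 60% and 81.3% of those with 1 to 2, 3 to 4 and 5 or more. Normalized for depth, Foxr2 RNA stood at 38.9, 71.2, 74.3 and 80.4 CPM, so that the largest step lay between 0 and 1 to 2 counts. GFP RNA was present in 56.9%, 90.1%, 95.5% and 98.4% of nuclei. The 970 vector nuclei with GFP RNA made up 92.2% of the total (90.4 to 93.8), and the rest had vector DNA counts with no GFP UMI.

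Hmga2, a chromatin protein of embryonic stem and progenitor cells that reappears in many tumors, also differed by vector count over all nuclei. Hmga2 RNA was found in 21.9% of nuclei with 0 vector counts and in 69.6%, 77.3% and 82.8% of nuclei over the next 3 steps. Its level was 380, 870, 896 and 721 CPM, and it did not climb further among vector nuclei. Within clusters 2, 3 and 8 the order turned, as given below by cluster. Over all vector nuclei Hmga2 reached 831 CPM (820 to 843), against 47.0 CPM (43.8 to 50.5) in the comparison nuclei. Trp53, the gene of p53, was read at 48.1 CPM in vector nuclei and 23.7 CPM in comparison nuclei, and since the reads tag the 3′ end of transcripts, it says nothing of whether the guide had cut the gene. For comparison, in host-like clusters, described below, nuclei with 0 vector counts had a Foxr2 UMI in 9.46% and an Hmga2 UMI in 6.41%, at a median of 3937 UMIs against 11676.5 in vector nuclei. Deeper nuclei show more of any gene, so these shares are not compared. At the same scale, Foxr2 stood at 16.1 CPM in those host-like nuclei and 74.7 CPM in vector nuclei, and Hmga2 at 15.1 and 831 CPM. GFP DNA can come from the Foxr2 vector too, so Foxr2 is not independent of the choice.

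**Figure D1:**
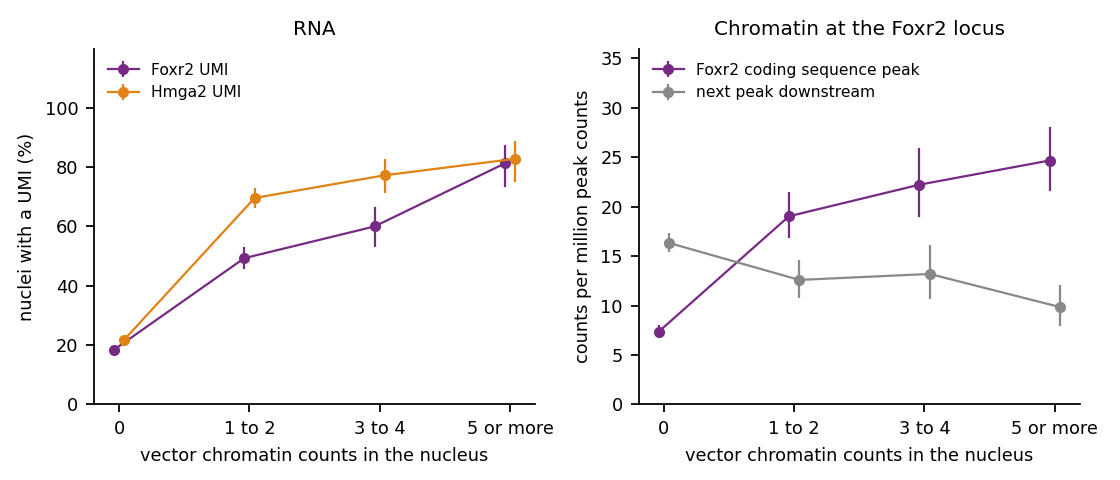
Left, share of nuclei (%) with a Foxr2 UMI (purple) or an Hmga2 UMI (orange) by the number of vector chromatin counts in the nucleus. Right, CPM (counts scaled to the total of peak counts) in the Foxr2 coding sequence peak (purple) and in the next peak downstream (gray). Points are values over the nuclei of each step and bars are exact 95% intervals. The coding sequence peak goes from 7.34 to 24.7 CPM while the downstream peak goes from 16.3 to 9.85.

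Vector nuclei were concentrated in 4 of 17 RNA clusters. The clusters were made from RNA with all vector features and all listed genes left out of the variable genes. In cluster 8, 163 of 421 nuclei (38.7%) held a vector count, followed by 394 of 1233 (32.0%) in cluster 2, 276 of 1013 (27.2%) in cluster 3 and 77 of 488 (15.8%) in cluster 7. These 4 clusters, grouped after their values were seen, held 910 of the 1052 vector nuclei (86.5%). Their share of nuclei with a vector count was 28.8% (27.3 to 30.5), against 2.02% (1.70 to 2.38) in the other 13 clusters. At 5000 peak counts a nucleus the shares were 14.2% and 1.09%, over the 2134 and 4249 nuclei that reached that depth. The order of the clusters changed there, with cluster 7 highest at 17.9%, over 160 nuclei. Cluster 8 followed at 16.6%, cluster 3 at 14.6% and cluster 2 at 12.4%.

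The leading genes of these clusters describe different states. Cluster 2 was led by Enpp6, Gdnf and Sema3a and shared the markers of committed oligodendrocyte precursors and of oligodendrocytes. Cluster 3 was led by Egfr, Eya2, Dbx2 and Rfx4, with astrocyte and precursor markers. Cluster 8 was led by Adgrl4, Flt1 and Ptprb, genes of blood vessel endothelium, together with Aqp4 and Gfap of astrocytes. Its endothelial genes were mostly those of nuclei with 0 vector counts, with Flt1 at 74.7 CPM in vector nuclei and 306 CPM in the others, Adgrl4 at 12.5 and 216 CPM, Ptprb at 5.83 and 172 CPM and Cldn5 at 1.86 and 81.5 CPM. A single nucleus with 0 vector counts held 663 of the 1595 Flt1 UMIs, 641 of the 1128 Adgrl4 UMIs and 545 of the 895 Ptprb UMIs of those others. Cluster 7 was led by Pomc, Oacyl and Hspa1a and was shallow, with a median of 1157.5 UMIs. Pomc stood there at 297 CPM in vector nuclei and 24792 CPM in nuclei with 0 vector counts, and Hspa1a at 163 and 160 CPM. None of these 4 was given a cell type name.

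The clusters named from neuron, oligodendrocyte and immune markers held few vector nuclei. Neuron-like clusters 0, 9 and 10 held 23 of 2460 nuclei (0.935%), oligodendrocyte-like cluster 1 held 10 of 1688 (0.592%), and microglia or macrophage-like clusters 4 and 6 held 13 of 1506 (0.863%). T or NK lymphocyte-like cluster 14 held 0 of 120 nuclei, which allows a share of up to 3.03%. Cluster 11, which had neuron markers but was not named because Scrublet marked 64 of its 178 nuclei, held 0, which allows up to 2.05%. Over neuron-like, oligodendrocyte-like and immune-like clusters the share was 0.797% (0.584 to 1.06). At 5000 peak counts it was 0.539%, over the 3401 nuclei that reached that depth. GFP RNA did not separate the classes as far, at 124 CPM in these clusters and 669 CPM in clusters 2, 3, 7 and 8. A GFP UMI was found in 44.6% and 88.0% of their nuclei, shares that go up with depth. These clusters are called host-like for their markers only, and their origin was not tested. The paper reports malignant neuron-like cells in all of its models.

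**Figure D2:**
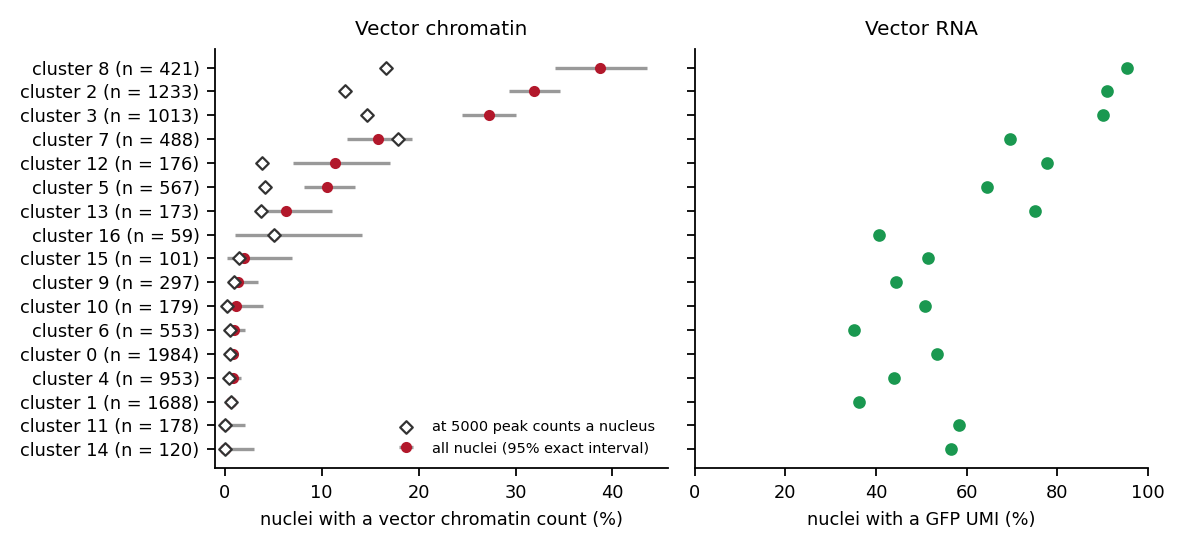
Left, share of nuclei (%) with 1 or more vector chromatin counts in each RNA cluster, for all nuclei (red, with exact 95% intervals) and at 5000 peak counts a nucleus, over nuclei that reached that depth (open diamonds). Right, share of nuclei (%) with a GFP UMI in the same clusters. Clusters 8, 2, 3 and 7 lie at 15.8% to 38.7% on the left, and the neuron-like, oligodendrocyte-like and immune-like clusters lie at 1.35% or below although 35.1% to 56.7% of their nuclei held GFP RNA. Cluster 5, unnamed and not among these, lies at 10.6%.

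Between these extremes of vector chromatin, astrocyte-like cluster 13 held 11 vector nuclei of 173 (6.36%, or 3.73% at 5000 peak counts). Its RNA lay inside the range of clusters 2, 3, 7 and 8, with GFP at 729 CPM (range 454 to 1596) and Foxr2 at 102 CPM (range 59.5 to 227). Oligodendrocyte precursor-like cluster 15 held 2 vector nuclei of 101 (1.98%). Cluster 16, unnamed and led by connective tissue genes such as Dcn and Col3a1, held 3 of 59 (5.08%, 1.06 to 14.1). Cluster 5, led by the dendritic cell genes Wdfy4, Dpp4 and Clec9a, held 60 of 567 (10.6%). It had microglia or macrophage markers, but was left unnamed because those leading genes belong to dendritic cells, for which no list was set. With cluster 5 added, a choice made after seeing the data, the share over neuron-like, oligodendrocyte-like and immune-like clusters was 1.67% (1.37 to 2.02) in place of 0.797%. At 5000 peak counts it was 0.897% in place of 0.539%, and cluster 5 itself stood at 4.12%. Vector nuclei of cluster 5 were deep, with a median of 29250 peak counts against 7186 in its other nuclei. Vector nuclei of cluster 5 had Hmga2 at 626 CPM, against 336 CPM in its other nuclei, and Ptprc, the leukocyte gene CD45, at 628 CPM. Scrublet marked 14 nuclei of cluster 5, and 156 of the 176 nuclei of cluster 12, where 20 vector nuclei lay. Whether droplets with 2 nuclei account for vector counts in these clusters was not tested.

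The 46 vector nuclei of host-like clusters were looked at singly. The 23 neuron-like ones held 441 GFP UMIs in all, of which 384 came from 1 nucleus of cluster 0 that also had 171 Akaluc UMIs, 26 Foxr2 UMIs, 6 vector counts and 10 counts in the Foxr2 coding sequence peak, with 0 Hmga2 UMIs. That nucleus was not marked as a doublet and had 35197 UMIs. The other neuron-like vector nuclei held at most 25 GFP UMIs, and 8 held none. The 10 oligodendrocyte-like vector nuclei had 13 GFP UMIs and 0 Foxr2 and 0 Hmga2 UMIs in all. The 13 microglia or macrophage-like ones had 69 GFP UMIs, 30 of them in 1 nucleus.

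Foxr2 RNA differed little by vector count within the clusters that held most vector nuclei. Vector nuclei and nuclei with 0 vector counts had Foxr2 at 77.2 and 77.4 CPM in cluster 2, at 58.8 and 59.9 CPM in cluster 3, and at 79.2 and 80.9 CPM in cluster 8. Hmga2 stood lower in vector nuclei than in nuclei with 0 vector counts of these clusters, at 919 and 1172 CPM in cluster 2, 1042 and 1094 CPM in cluster 3, and 782 and 844 CPM in cluster 8, each under 2-fold. In cluster 7, Foxr2 stood at 273 CPM (207 to 354) and 214 CPM (183 to 250). The host-like clusters differed in this, with 83.9 CPM (61.5 to 112) in the 46 vector nuclei and 16.1 CPM (14.8 to 17.4) in the rest, and 26 of those 46 Foxr2 UMIs came from the single nucleus described above.

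The RNA of the vector nuclei was next compared with nuclei that lacked the vector on both readouts. Within a distance of 0.15 in log10 UMIs and log10 peak counts, 648 vector nuclei found a partner and 404 did not, and those left out were deeper, with a median of 26263 UMIs. The pairs differed in kind. Of the 648 vector nuclei, 564 lay in clusters 2, 3, 7 and 8, against 58 of the partners, and 373 partners were neuron-like. Neuron markers summed to 532 CPM in vector nuclei and 2786 CPM in partners, and microglia or macrophage markers to 230 and 581 CPM, so these ratios describe vector nuclei against a mix of mostly other cell types, which may include nuclei that hold an unseen vector. Of 11226 genes tested, 2160 were higher (19.2%) and 1820 lower (16.2%) in vector nuclei.

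Some genes of the oncofetal program, which fetal tissue and many tumors share, were high. Of 10 listed, only 5 reached 10 CPM in 1 set and were tested, and of these 4 were higher and 1 lower. Hmga2 stood at 910 CPM in vector nuclei and 48.1 CPM in partners, a log2 ratio of 4.24 (4.07 to 4.42). Against any matched nucleus with 0 vector counts the Hmga2 ratio was 0.53 (0.49 to 0.56), under 2-fold. The RNA-binding proteins Igf2bp2 (144 against 11.8 CPM) and Igf2bp3 (148 against 19.1 CPM), which bind and stabilize growth-related transcripts, had log2 ratios of 3.62 and 2.95. Hmga1, the close relative of Hmga2, was higher at 16.4 against 3.75 CPM. Lin28b, a repressor of let-7 microRNAs often named with these genes, was the exception, at 20.5 CPM in vector nuclei and 218 CPM in partners (log2 ratio -3.40, interval -3.68 to -3.14). Igf2, H19 and Igf2bp1 were at 9 UMIs or fewer in both sets.

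Growth factor receptors and ligands were mostly higher. Of 16 tested, 10 were higher and 2 lower. Egfr, the receptor of epidermal growth factor, stood at 406 against 20.6 CPM (log2 ratio 4.30, 4.03 to 4.57), and Lrig1, a negative regulator of that receptor, at 236 against 13.3 CPM (4.15). Its ligands Areg, Hbegf and Tgfa had log2 ratios of 3.29, 2.68 and 1.2. Receptors of other families were higher as well, with Pdgfra at 3.24, Fgfr3 at 3.36, Fgfr1 at 2.33 and Met at 2.74. The neuregulin Nrg1 was lower, at 248 against 1809 CPM, and so was Pdgfb at 3.34 against 10.1 CPM. Without the pair of 1 partner nucleus, Pdgfb fell under 10 CPM in both sets.

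ETS factors, many of which respond to growth factor signaling, were higher for 8 of 12 genes and lower for 1. Etv4 (73.3 against 6.31 CPM), Etv1 (148 against 29.7) and Etv5 (141 against 37.4) had log2 ratios of 3.54, 2.32 and 1.92. Fli1, an ETS factor of blood and endothelial cells, was lower at 15.7 against 56.8 CPM. Transcription factors of glial cells and their precursors were higher for 16 of 16 genes, with a median log2 ratio of 2.32 on the scale of CPM plus 1, against 0.20 over all genes tested. Among them, Sox9 had a log2 ratio of 3.23, Nkx2-2 of 2.93, Nfib of 2.78, Sox2 of 2.71 and Olig2 of 2.55.

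Neuronal genes were lower for 9 of 11. The glutamate transporter gene Slc17a6 stood at 15 against 221 CPM, the nuclear neuron marker Rbfox3 at 18.7 against 195 CPM and the synaptic gene Syt1 at 215 against 1594 CPM. Gad2, which makes the transmitter GABA, was not among them, at 113 against 101 CPM. Of 12 factors of the ganglionic eminences, the site of electroporation, 0 reached 10 CPM in either set. Lhx6 had 8 UMIs in the 648 vector nuclei, Dlx1 and Gsx2 had 3 each, Dlx2 had 1, and Dlx5, Dlx6 and Lhx8 had 0.

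Cell cycle genes were higher together with inhibitors of the cycle. Of the S phase list 10 of 12 were higher, led by Dtl (48.8 against 4.27 CPM) and Uhrf1 (15 against 1.36 CPM), and of the mitosis list 11 of 12, with Top2a at 155 against 28.5 CPM and Mki67 at 82.8 against 25.8 CPM. All 4 tested inhibitors of cyclin-dependent kinases were higher. Cdkn2a, whose products p16 and p19 brake the cell cycle and stabilize p53, stood at 116 against 15.7 CPM (log2 ratio 2.89, 2.57 to 3.22). Of 12 targets of p53, 3 were higher, namely Cdkn1a (log2 ratio 1.38), the death receptor gene Fas (3.92) and Btg2 (2.54), while the other 9 did not pass 2-fold, from Rrm2b (-0.40) up to Aen (96 against 47 UMIs, just under 2-fold), with Mdm2 at 0.62. The share of p53 targets called higher is near the 19.2% of all genes tested.

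Antigen presentation by MHC class I was higher for 10 of 11 genes. Nlrc5, the activator of the class I genes, stood at 430 against 88.4 CPM (log2 ratio 2.28), H2-K1 at 418 against 138 CPM (1.60), B2m at 615 against 272 CPM (1.18) and Irf1 at 187 against 28 CPM (2.74). Of 8 hypoxia and stress genes 5 were higher, among them Adm (11.5 against 0.682 CPM) and Vegfa (59.6 against 13.6 CPM), both induced by low oxygen, as well as Hspa1a and Hspa1b, which encode heat shock proteins. Without the pair of the vector nucleus with most UMIs of the gene, Hspa1a fell under 10 CPM in both sets and H2-D1, one of the 10 class I genes, fell just under 2-fold.

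The genes with the highest ratios outside the lists were Ttll8 (253 against 3 UMIs, log2 ratio 6.37, 4.80 to 8.65), the transporter gene Abcc12 (5.83), the basement membrane gene Nid2 (5.74, 4.17 to 8.03), Htr5b, Dbx2, Pla1a, Btbd17, Cd109, the hyaluronan synthase Has2, the filamin Flnc, the interferon-induced Gbp10, Rfx4 and the collagen Col4a6 (4.89). The other 7 of the 20 highest were unnamed gene models. Dbx2 and Rfx4, transcription factors of neural progenitors, were found in 198 and 361 of the 648 vector nuclei and in 13 and 48 partners. The lowest ratios among named genes were those of Chrna6 (1 against 70 UMIs), Chrnb3 (2 against 115), Lmx1b (2 against 103), the dopamine synthesis gene Th (2 against 62), Pmfbp1 and Slc10a4, and the other 4 of the 10 lowest were unnamed gene models. Without the pair of the partner nucleus with most of its UMIs, Th and Slc10a4 each fell under 10 CPM. Of the list and named genes called lower in these pairs, 27 kept the call and 5 fell under 10 CPM in this way. Overlapping and antisense genes can share reads, and values of genes with such neighbors are uncertain.

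Fewer genes differed when pairs were restricted to the same RNA cluster. In 188 such pairs, with 116 on each side in clusters 2, 3, 7 and 8, 601 of 10964 genes were higher (5.48%) and 456 lower (4.16%), and many of the calls rest on few UMIs. Foxr2 stood at 81.1 against 14.1 CPM (100 against 17 UMIs, log2 ratio 2.52, 1.77 to 3.36), a description only, since the partners were chosen for 0 GFP and Akaluc UMIs and the Foxr2 vector also carries GFP. With same-cluster partners not chosen on vector RNA the Foxr2 ratio was 0.22. Hmga2 did not pass 2-fold, at 562 against 398 CPM (0.50, 0.33 to 0.67). With 3 partners for each vector nucleus its ratio was 1.91 (0.96 to 2.89). Only 55 vector nuclei found 3 such partners, in place of 188, so the nuclei compared were not the same. Of the 5 oncofetal genes 2 passed 2-fold in the 188 pairs, Igf2bp2 (1.06) and Hmga1 (19 against 4 UMIs). All 16 glial factors had been higher in the unrestricted pairs, and here 2 were, Sox9 (1.37) and Hes1 (14 against 3 UMIs, 2.19, 0.35 to 4.63).

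Growth factor genes still differed for 6 of 16, all higher. Pdgfra stood at 147 against 37.4 CPM (log2 ratio 1.97), Egfr at 333 against 124 CPM (1.43), Hbegf at 66.5 against 10.8 CPM (2.62), Lrig1 at 135 against 22.4 CPM (2.60), and Fgfr1 and Fgfr3 had ratios of 1.06 and 2.29. Of astrocyte markers 6 of 7 were higher, with Aldh1l1 at 2.11, Aqp4 at 1.86 and Gfap at 1.61. Summed markers of other cell types moved as well, with microglia or macrophage markers at 627 against 999 CPM (-0.67, -0.80 to -0.54) and oligodendrocyte markers at 2369.6 against 3539 CPM (-0.58, -0.65 to -0.51). The part of these differences in the other ratios was not tested. Against 5.48% of all genes tested, 3 of 13 S phase genes were higher (Mcm7, Uhrf1 and Dtl), 3 of 12 mitosis genes (Mki67, Cenpf and Aspm), 2 of 6 hypoxia and stress genes (Vegfa, 1.12, and Hspa1b, 1.97), 1 of 11 MHC class I genes (Irf1, 1.05) and 1 of 13 p53 targets (Fas, 2.74). Of 11 ETS factors, Ets2 and Etv4 were higher and Fli1 was lower. Many of these calls turn on 1 nucleus. When, for each list or named gene called higher within clusters, the pair of the vector nucleus with most of its UMIs was left out, 26 genes kept the call, 10 fell under 2-fold and 13 fell under 10 CPM. Foxr2, Hmga1, Sox9, Fas, Mcm7 and all 6 growth factor genes were among the 26. Igf2bp2 (0.89), Irf1 (0.93), Vegfa (0.97), Mki67 (0.77), Cenpf (0.73), Aspm (0.81), Dtl (0.84), Uhrf1 (0.80), Ets2 (0.97) and Etv4 (0.86) fell under 2-fold, and Hes1 and Hspa1b under 10 CPM. This check was chosen after the data were seen.

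Outside the lists, the highest ratios within clusters included those of Csrnp1 (16 against 1 UMIs), Ccdc190, Car4, the mitotic gene Cks2, Mamdc2, the stress gene Gadd45b (28 against 2 UMIs), Egr3, Lhx1os, Apol9a, the progenitor factor Pax6 (37 against 4 UMIs), Frem1, Cav1, Cyp1b1, Gas1, Flnc, Sntb1 and Abcc12. Single nuclei held much of some of these, such as 11 of the 18 Cyp1b1 UMIs. Among the 13 genes that fell under 10 CPM without 1 pair were Ccdc190, Car4, Cks2, Egr3, Lhx1os, Frem1 and Cyp1b1. At the other end, Pomc, the precursor of pituitary and hypothalamic peptide hormones, stood at 104 CPM in vector nuclei and 1117 CPM in partners (log2 ratio -3.43, -3.70 to -3.17). A single partner nucleus held 1242 of the 1346 partner UMIs, and without its pair Pomc stood at 104 against 86.9 CPM (0.27, -0.12 to 0.65). Oacyl had 42 of its 49 partner UMIs in 1 nucleus and Prl all 34 in 1 nucleus, and Tlr1, Abca8a, Stap1, Ranbp3l, Gsdmd and Adgrf5 followed with 13 to 31 partner UMIs against 1 or 2. The list and named genes called lower within clusters were also taken without the pair of the partner nucleus with most UMIs. Of these, 7 kept the call, 2 fell under 2-fold and 6 fell under 10 CPM, Ranbp3l, Gsdmd and Adgrf5 among the 6.

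When the partner had only to have 0 vector counts and to lie in the same cluster, few genes passed 2-fold. Such partners could hold vector RNA, and GFP stood at 648 CPM in vector nuclei and 546 CPM in partners. This set held 926 pairs, and 2 of 10513 genes were higher (0.0190%) and 35 lower (0.333%). Foxr2 stood at 77.8 against 66.5 CPM (log2 ratio 0.22, 0.09 to 0.36), Hmga2 at 859 against 997 CPM (-0.22, -0.25 to -0.18), Egfr at 302 against 279 CPM and Cdkn2a at 113 against 102 CPM. The higher genes were Qrfpr, of whose 140 UMIs 111 came from 1 nucleus, and Hspa1b (198 against 87 UMIs, with 55 of the 198 in 1 nucleus). Without the pair of that nucleus Hspa1b stood at 143 against 87 UMIs (0.63, 0.23 to 1.03) and without its own leading pair Qrfpr fell under 10 CPM, so neither call held.

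The lower genes of this set were led by endothelial genes. Cldn5, of the tight junctions of brain vessels, had 5 against 344 UMIs, Adgrl4 15 against 810, Ptprb 15 against 689 and Vwf 33 against 275. A single partner nucleus of cluster 8 with 186595 UMIs held 295 of the Cldn5, 641 of the Adgrl4 and 545 of the Ptprb UMIs. Leaving out that pair lowered the number of genes called lower to 13, and Cldn5 and Vwf fell under 10 CPM in both sets. Their UMIs still differed, with log2 ratios of -3.38 (-5.07 to -2.06) and -1.44 (-2.06 to -0.84), and Adgrl4 remained lower at 14 against 169 UMIs (-3.68). Pomc passed 2-fold downward in this set, at 77.2 against 161 CPM (-1.06, -1.17 to -0.95), but 641 partner UMIs were in 1 nucleus, and without that pair the ratio was -0.51 (-0.63 to -0.40). The ratio covers paired vector nuclei. In cluster 2, those without a partner held more Pomc, at 328 CPM after 1 nucleus was left out, against 68.6 CPM in those with a partner. In clusters 3 and 7 those without a partner were 2 nuclei with 1 Pomc UMI and 8 nuclei with 7 UMIs, too few to compare. In cluster 8 those without a partner stood at 105 CPM and those with a partner at 114 CPM. Without the leading nucleus of each set these levels were 65.5 CPM (58.7 to 72.8) and 75.4 CPM (64.4 to 87.7). Oacyl had 32 against 209 UMIs, 91 of them in 1 partner nucleus, and fell under 10 CPM without it. When each named or list gene called lower in this set was taken without the pair that held most of its UMIs, 3 kept the call, Adgrl4, Ptprb and Slco1a4.

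**Figure D3:**
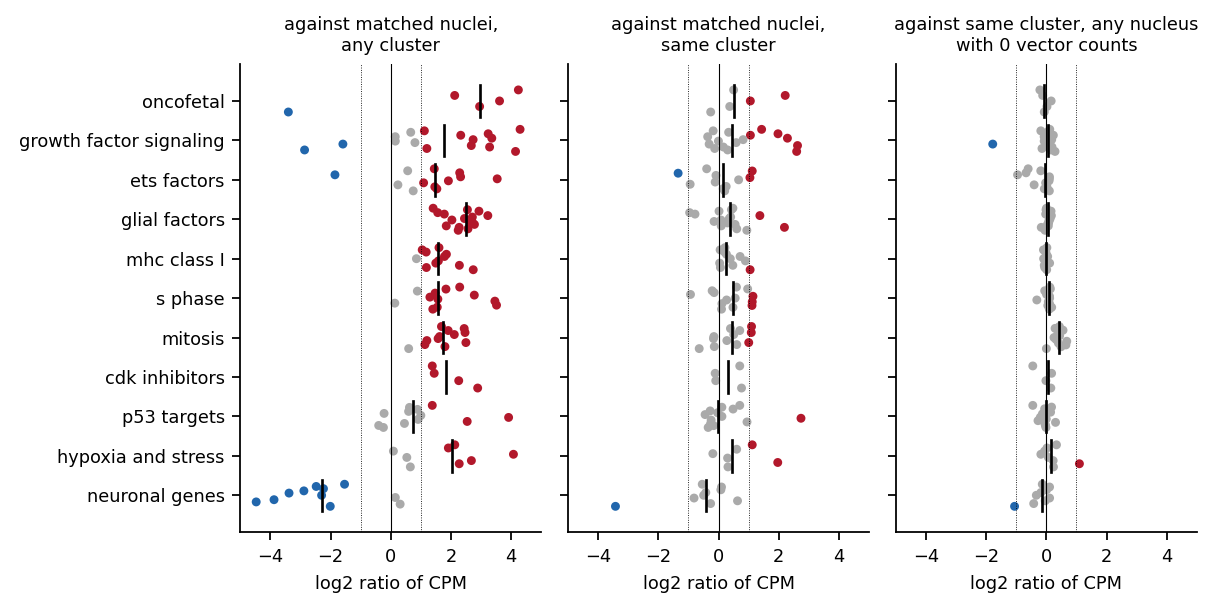
Log2 ratio of CPM, vector nuclei over comparison nuclei, for the tested genes of each list (points), in 3 sets of pairs from left to right. Red and blue points passed 2-fold (dotted lines) upward and downward, gray points did not, and black bars are list medians. All 16 glial factors are red on the left, 2 are red in the middle and 0 on the right.

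Mitosis had the highest median ratio of the lists in this last set, although no gene of it passed 2-fold. Of 13 tested genes 12 had a ratio above 0, with a median of 0.43 on the scale of CPM plus 1, against -0.01 over all genes tested. Aspm, which acts at the poles of the mitotic spindle, had a log2 ratio of 0.68 (0.49 to 0.86), Cenpe, a motor protein of the kinetochore, of 0.55 (0.42 to 0.69), Mki67 of 0.43 (0.31 to 0.56) and Top2a of 0.29 (0.20 to 0.38). S phase genes lay closer to 0, with 11 of 13 above it and a median of 0.10. The mitosis genes summed to 807 against 625 CPM (0.37, 0.33 to 0.41). Marker sums of cell types moved in the same pairs, with microglia or macrophage markers to 352 against 461 CPM (-0.39, -0.44 to -0.33), T or NK lymphocyte markers to 137 against 191 CPM (-0.48, -0.57 to -0.39) and astrocyte markers to 1611 against 1427 CPM (0.17, 0.15 to 0.20). Their part in the mitosis ratios was not tested.

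Nuclei were next scored for RNA of the cycling genes Mki67 and Top2a. Each nucleus was thinned to 1000 UMIs, because the unthinned share goes up with depth, and counted when either gene had a UMI. It was 174 of 1032 vector nuclei (16.9%, 14.6 to 19.3), against 4.96% (4.22 to 5.78) of the comparison nuclei and 6.67% (6.16 to 7.21) of all nuclei with 0 vector counts. Without thinning the vector nuclei reached 50.5%. In pairs of the same cluster with any nucleus of 0 vector counts the shares were 16.4% (14.1 to 19) and 11.8% (9.81 to 14.1). Counted instead by 2 or more UMIs over the mitosis list, they were 16.9% (14.5 to 19.5) and 11.7% (9.71 to 14).

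By cluster, the thinned share can be given for 5 clusters. In cluster 2, 19% (15.3 to 23.3) of vector nuclei and 10.1% (8.17 to 12.4) of nuclei with 0 vector counts had such a UMI. In clusters 3 and 8 the values were 17.4% against 13.1% and 13.5% against 10.1%, and in cluster 7 they were 14% against 14.9%. Cluster 5 had as wide a gap as cluster 2, at 20% (10.8 to 32.3) against 10.3% (7.80 to 13.3), over 60 vector nuclei. Vector nuclei of cluster 2 were deeper than the rest of that cluster, with medians of 15709.5 and 9825 UMIs before thinning.

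**Figure D4:**
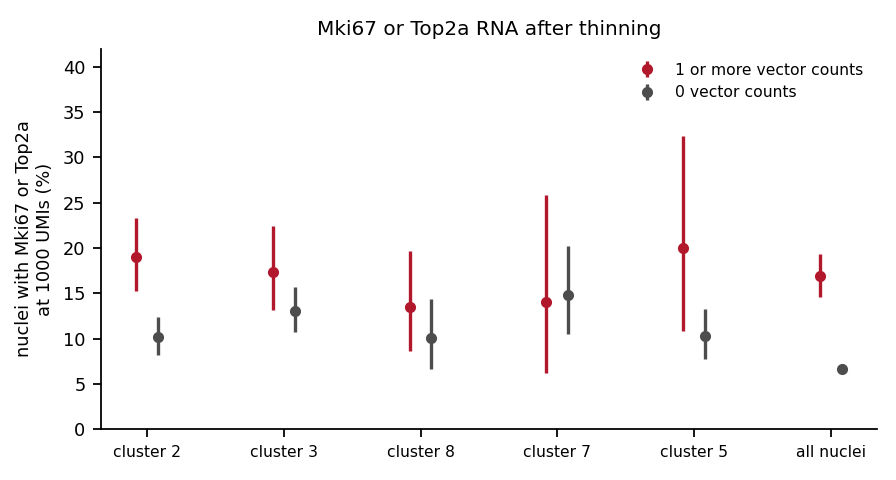
Share of nuclei (%) in which Mki67 or Top2a RNA remained after thinning to 1000 UMIs, for nuclei with 1 or more (red) and 0 (gray) vector counts, by RNA cluster and over all nuclei. Bars are exact 95% intervals. The values are 19% and 10.1% in cluster 2, 14% and 14.9% in cluster 7, and 16.9% and 6.67% over all nuclei.

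Vector nuclei differed among themselves by cluster. Egfr ran at 916 CPM in the vector nuclei of cluster 3, 206 CPM in cluster 8 and 42.6 CPM in cluster 2, and Erbb4, a related receptor, at 4239.5, 1606 and 580 CPM. Sox10, a factor of the oligodendrocyte lineage, had the opposite order, at 8.05, 105 and 187 CPM, as had the myelin gene Mbp at 129.5, 1188 and 1944 CPM. Igf2bp2 and Igf2bp3 split between the clusters, with Igf2bp2 at 241 CPM in cluster 2 and 24.5 CPM in cluster 3, and Igf2bp3 at 111 and 235 CPM. Pomc was at 1153 CPM in cluster 2, but 9733 of its 11325 UMIs there were in 1 nucleus without a partner, and without it the level was 164 CPM (156 to 172). The 348 vector nuclei of cluster 2 with a partner had Pomc at 68.6 CPM, the 839 nuclei with 0 vector counts at 115 CPM, or 71.5 CPM without 1 nucleus of 495 UMIs, and the vector nuclei of cluster 3 at 54.3 CPM. Clusters were made from RNA, so these levels describe the clusters and are not a test.

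Some other genes differed by less than 2-fold among the vector nuclei of clusters 2, 3 and 8. Hmga2 stood at 919, 1042 and 782 CPM in clusters 2, 3 and 8, Cdkn2a at 104, 119 and 169 CPM and Etv1 at 165, 165 and 166 CPM. The vector nuclei of cluster 7 stood apart in stress genes, with Hspa1a at 163 CPM against 8.65, 0.350 and 6.08 CPM in clusters 2, 3 and 8, and had less Hmga2, at 168 CPM. This Hspa1a level rests on 34 UMIs in 7.79% of the 77 nuclei, and 62 of the 85 Hspa1a UMIs of cluster 2 were in 1 nucleus.

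In chromatin of the 648 matched pairs, 7398 of 31276 peaks were higher (23.7%) and 3772 lower (12.1%). At 50 CPM or more, 34 of 3750 peaks were higher and 11 lower. At Hmga2 (chr10:120361275-120476469, minus strand) the 11 peaks over the gene or within 2000 bases of it held 1757 counts in vector nuclei and 224 in partners, a log2 ratio of 2.76 (2.56 to 2.97). All 11 had a higher CPM in vector nuclei. The peak at the start of the gene, chr10:120476491-120477374, had 335 counts in 149 vector nuclei and 27 counts in 17 partners (3.42, 2.86 to 4.05). The bases before that start are shown because RNA and chromatin of the same gene moved together here, from RefSeq for GRCm38.p6, minus strand, with the bases inside the peak in capitals.
Hmga2, 250 bases before the start, chr10:120476470-120476719: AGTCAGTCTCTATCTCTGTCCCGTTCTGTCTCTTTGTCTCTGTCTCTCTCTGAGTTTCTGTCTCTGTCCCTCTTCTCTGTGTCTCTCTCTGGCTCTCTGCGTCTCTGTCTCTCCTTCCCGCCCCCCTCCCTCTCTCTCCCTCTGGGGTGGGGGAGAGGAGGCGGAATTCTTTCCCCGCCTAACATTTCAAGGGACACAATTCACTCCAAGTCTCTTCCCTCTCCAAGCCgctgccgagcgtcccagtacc

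In pairs of the same cluster, the log2 ratio of the Hmga2 peaks fell to 1.12 (0.84 to 1.42), where its RNA stood at 0.50. Against any nucleus with 0 vector counts the ratio of the peaks was 0.18 (0.10 to 0.25). The Foxr2 coding sequence peak held 48 against 4 counts (3.54, 2.10 to 5.48) within clusters, and 390 against 288 counts (0.30, 0.08 to 0.53) against any nucleus with 0 vector counts, where the downstream peak had 0.02 (-0.25 to 0.29). The 390 and 288 counts lay in 158 vector nuclei and 127 partners. Since counts often come in pairs, the interval of that small ratio is too narrow. Within clusters 3092 of 29572 peaks were higher (10.5%) and 2513 lower (8.50%). Against any nucleus with 0 vector counts, 1 of 26662 peaks was higher (0.00375%), between genes nearest to Reg4 (229 against 101 counts), and 3 were lower (0.0113%), near Ggta1, at the start of Klhl35 and in 2310001H17Rik.

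**Figure D5:**
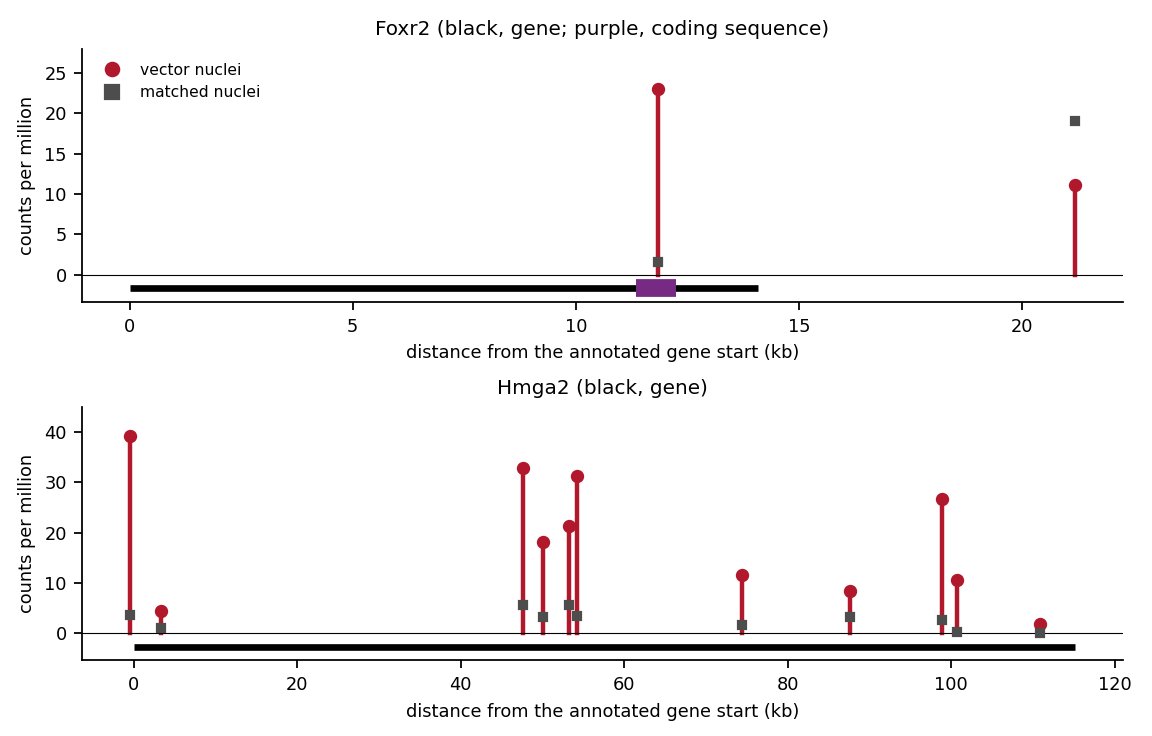
CPM (counts scaled to the total of peak counts) in each peak at Foxr2 (top) and Hmga2 (bottom) against the distance from the annotated gene start (kb), in vector nuclei (red) and in matched comparison nuclei (gray squares). Black bars are the genes and the purple bar is the Foxr2 coding sequence. The Foxr2 peak over the coding sequence reaches 23.0 against 1.63 CPM, the peak downstream stands at 11.1 against 19 CPM, and all 11 Hmga2 peaks are higher in vector nuclei.

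Chromatin at the listed genes followed RNA for some and not for others. Summed over a gene and 2000 bases on each side, log2 ratios of peak counts were 2.33 at Cdkn2a, 2.35 at Sox9, 2.19 at Olig2, 2.00 at Egfr, 1.56 at Igf2bp2 and -1.94 at Lin28b, each on the side of its RNA. At H2-K1 (352 against 320 counts, -0.07), B2m (-0.08), Cdkn1a (-0.32) and Top2a (0.04), genes higher in RNA, the chromatin ratio stayed below 2-fold. Some factors of the ganglionic eminences showed the reverse. Peaks at Dlx2 held 492 against 111 counts (1.94, 1.64 to 2.25), at Gsx2 62 against 13 (2.04) and at Lhx6 138 against 35 (1.77), while none of these genes had over 8 UMIs in vector nuclei. Peaks at Dlx5 (-0.67) and Nkx2-1 (-0.50) were not higher, and those at the other factors of the list are not reported here.

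The peaks with the highest ratios lay mostly between genes. They lay at chr16:87130617-87131481 (122 against 1 counts, nearest gene N6amt1), in introns of 1010001N08Rik, Elavl4 and Hmga2, in an exon of Zfp770, and between genes nearest to Slc27a6, Lrig3, Trim52, Nkx2-2 and Meox1. The peak near Nkx2-2, at chr2:147144663-147145543, lay 32003 bases from that gene, a glial factor higher in RNA. The lowest were in introns of the neuronal adhesion gene Lsamp (1 against 87 counts) and of Gm2824, at the starts of Cntn5 and Gm3264, and near Kazn. By chromosome, peak counts of the autosomes moved little. Autosomal shares of peak counts had log2 ratios from -0.13 (chromosome 7) to 0.13 (chromosome 3), while autosomal RNA shares reached 0.51 on chromosome 17 and -0.38 on chromosome 12. The largest shift was that of chromosome Y, with 26 peaks, at 0.63 (0.55 to 0.72) in peak counts and 0.84 in RNA. Within clusters chromosome Y had 0.24 (0.07 to 0.40) in peak counts and 0.05 in RNA.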

How the data were processed

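RNA and open chromatin were measured in single nuclei with 10x Multiome. The authors aligned reads to mm10 with added vector chromosomes, with Cell Ranger ARC 2.0.0 named in the submitters' processing notes, and deposited raw counts, UMIs per gene and transposase cut counts per peak. No unmapped sample column was present (0). Reads of overlapping or antisense genes were not separated here.

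Barcodes of the Foxr2 p53LOF matrix with 500 or more UMIs and at most 5% mitochondrial UMIs were kept. Clusters came from scanpy 1.11.5 (2000 variable genes, 30 principal components, 20 neighbors, Leiden resolution 0.5, leidenalg 0.10.2), without vector or listed genes, and doublets from Scrublet. Vector nuclei were paired 1 to 1 with nuclei of like depth, within 0.15 in log10 UMIs and log10 peak counts, and counts were summed by set. Vector nuclei were counted in 1 library, so the planned comparisons gave ratios and exact 95% intervals (Poisson for levels, conditional binomial for ratios, Clopper-Pearson for shares; scipy 1.17.1), without a test. These intervals cover counting error only. Those of levels and ratios treat each UMI or cut as independent, which makes them too narrow for peak counts and for genes with many UMIs in 1 nucleus. Calls needed 10 CPM (counts scaled to a total of 1000000) in 1 set and a 2-fold difference, and a set at 0 was put at a floor of 3 counts. Pairing, ratio intervals and the 2-fold rule were run on simulated data with independent counts. Those counts were not split over nuclei and the 10 CPM rule was not applied. The run therefore says nothing of calls that turn on 1 nucleus.

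Members and gene lists were chosen with earlier results of these data known. Named were the list genes, the 20 highest and 10 lowest called genes, and the 10 highest and 5 lowest peaks; unnamed gene models could be left out. Alternatives changed the vector count, doublets, UMI minimum, partners, level filter and cluster restriction. Foxr2 alone replicate 1 had no vector peak, so the planned vector count there could not be made. Foxr2 alone replicate 2 counts and the gene Ca9, which matched no row, were not analysed here. Some genes that the naming rule selects are not reported here.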

Additional observations from a re-analysis of the deposited data

How the results depend on the processing

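Pairs were of nuclei within 1 library, and samples of the genotype groups were not paired. No result comes from a test, and no replicate could be left out, since vector nuclei were counted in 1 library. In matched pairs 3980 genes were called. The number was 1865 at 50 CPM or more and 994 (40 higher, 954 lower) when any nucleus with 0 vector counts could be a partner. It lay between 3701 and 5733 under the other alternatives. Within clusters 1057 genes were called in 188 pairs. The number was 2110 for 3 or more vector counts (77 pairs) and 2170 with 3 partners each (55 vector nuclei). It was 240 at 50 CPM or more, 2833 with no filter and 1 CPM added, and 37 with any nucleus of 0 vector counts. In that last setting the Hmga2 log2 ratio turned from 0.50 to -0.22. In pairs of any cluster, letting any nucleus with 0 vector counts be a partner took Hmga2 from 4.24 to 0.53 and Foxr2 from 2.82 to 0.84 (0.71 to 0.98), no matching gave Foxr2 2.15, and 3 or more vector counts gave Hmga2 3.20. Within clusters Hmga2 was 1.91 with 3 partners each, over 55 vector nuclei, and 0.29 without Scrublet doublets. Leaving out the pair of the nucleus with most Cldn5 UMIs, an alternative chosen after seeing the data, took 37 calls to 15, and leaving out the pair with most Prl UMIs, chosen likewise, took 1057 to 1052. Called peaks went from 11170 to 5605 within clusters and to 45 of 3750 tested at 50 CPM or more, and the Foxr2 coding sequence peak went from 3.82 to 2.78 (1.91 to 3.78) at 3 or more vector counts. The chromosome 3 ratio went from 0.13 to 0.053 within clusters. The share of vector nuclei was 3.42% at 3 or more vector counts, and the share with Mki67 or Top2a was 50.5% without thinning. The causes were not tested. Sparse vector counts limit the choice, since a nucleus with 0 can hold the vector, and 1 library gives no spread between animals.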
